A study of Schizosaccharomyces pombe with 9 samples.

Results

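The Cdk8 module of Mediator was followed in fission yeast (Schizosaccharomyces pombe) through the transcripts of 3 of its genes, srb10, srb11 and med13 (older symbol srb9). They were chosen by symbol from the annotation of the array's probe sets, because mutants of this module flocculate, and each was read by 1 probe set (1772568_at, 1773999_at and 1773451_at). They are 3 of the 2899 S. pombe genes that had a probe set with a single symbol. The remaining subunit gene, srb8 (Med12), is described beside them. The arrays were Affymetrix arrays, 9 in all, and each strain had 3. The control, WT, is the strain SPQ-01. SD1 is SPQ-01 with rpl32-1 deleted and SD2 is SPQ-01 with rpl32-2 deleted. The deleted genes are paralogs for ribosomal protein L32. Growth was at 30 °C in the rich medium YEPD, and cells were collected at an OD600 of 5.0. Per its title, the series is about flocculation outside mating. The labels call the arrays of a strain biological replicates and do not say whether more than 1 clone of each deletion was used.

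Mediator is the large complex that carries signals from DNA-bound transcription factors to RNA polymerase II. Its Cdk8 module binds the core complex reversibly, keeps core Mediator from engaging the polymerase, and phosphorylates transcription factors. The kinase is Srb10 (Cdk8), its cyclin is Srb11 (cyclin C), and Med13 and Srb8 (Med12) are the large subunits, of which Med13 joins the module to the core. In fission yeast, loss of module subunits is known to derepress cell surface adhesion genes and to make cells clump.

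The deposited values are log2 expression values, so a difference of 1 is a 2-fold change. The deleted genes behaved as labelled, rpl3201 (rpl32-1) being lower in SD1 than in WT by -9.09 ± 0.41 (log2, SE) and rpl3202 (rpl32-2) lower in SD2 by -6.23 ± 0.34. The level of probe sets taken as those of the other yeast on the array, S. cerevisiae, gave a background of 5.17 (the mean over arrays of their 95th percentile). WT stood apart in 2 RNA measures. The signal of 18S rRNA at its 3' end less that at its 5' end ran from -1.53 to -0.90 (log2) in WT, from -0.44 to -0.33 in SD1 and from -0.52 to -0.29 in SD2. The lowest of these, -1.53, belonged to WT array 2. The same difference for the rRNA of the large ribosomal subunit ran from -0.47 to -0.08 in WT, from 0.17 to 0.62 in SD1 and from 0.13 to 0.37 in SD2. That for the actin gene act1 overlapped, at 0.23 to 0.39 in WT, 0.27 to 0.33 in SD1 and 0.30 to 0.39 in SD2. The part of these signals in the results was not tested. The arrays numbered 1 in the 3 strains shared 238 to 412 exactly equal S. pombe values per pair. Those numbered 2 or 3 shared 2 to 12, and arrays of different numbers 0 to 1. Differences within each array number are therefore given beside the fitted ones.

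The clearest change in the module was a fall of med13 in SD1. The log2 value of med13 was 7.51, 8.23 and 7.84 on WT arrays 1, 2 and 3. It was 7.10, 7.41 and 7.31 on the SD1 arrays, all of them below the lowest WT array. It was 7.28, 7.41 and 7.73 on the SD2 arrays, which overlapped WT, and WT array 2 was the highest of the 9. Against WT, med13 fell by 0.59 ± 0.19 in SD1 on the log2 scale (SE, n = 3 arrays each), a 1.5-fold fall with a 95% interval from 1.12-fold to 2.02-fold (limma adjusted p = 0.0331). In the same comparison 23.7% of the 2937 S. pombe probe sets were called lower, and in 28.6% all SD1 arrays lay below all WT arrays. Within array numbers 1, 2 and 3 the SD1 minus WT difference was -0.41, -0.82 and -0.53. In SD2 the difference from WT was -0.39 ± 0.19 with a 95% interval from -0.81 to 0.04, and it did not pass the test (adjusted p = 0.149). It was -0.23, -0.82 and -0.11 within the numbers, below 0 in each.

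Whether med13 was called depended on the arrays and settings used. The SD1 call was lost without WT array 2 (-0.40, adjusted p = 0.0995) or SD1 array 1 (-0.50, adjusted p = 0.0976). Without WT array 3 (-0.59, adjusted p = 0.0722) or SD1 array 3 (-0.60, adjusted p = 0.0743) it was also lost, though the difference did not shrink. The error was then 0.223, beside 0.187 in the main fit. Without WT array 1, the lowest WT array, the fall in SD2 passed as well, at -0.56 (adjusted p = 0.0372). It also passed at -0.54 (adjusted p = 0.0113) after quantile normalization over the 9 arrays, and at that scaling the SD1 value was -0.67. Over the settings and left-out arrays tried, the adjusted p in SD1 ran from 0.00284 to 0.0995 and that in SD2 from 0.0113 to 0.441. An exact permutation test of the single gene gave a two-sided p of 0.1 in SD1, the smallest that 3 arrays against 3 allow.

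**Figure D1:**
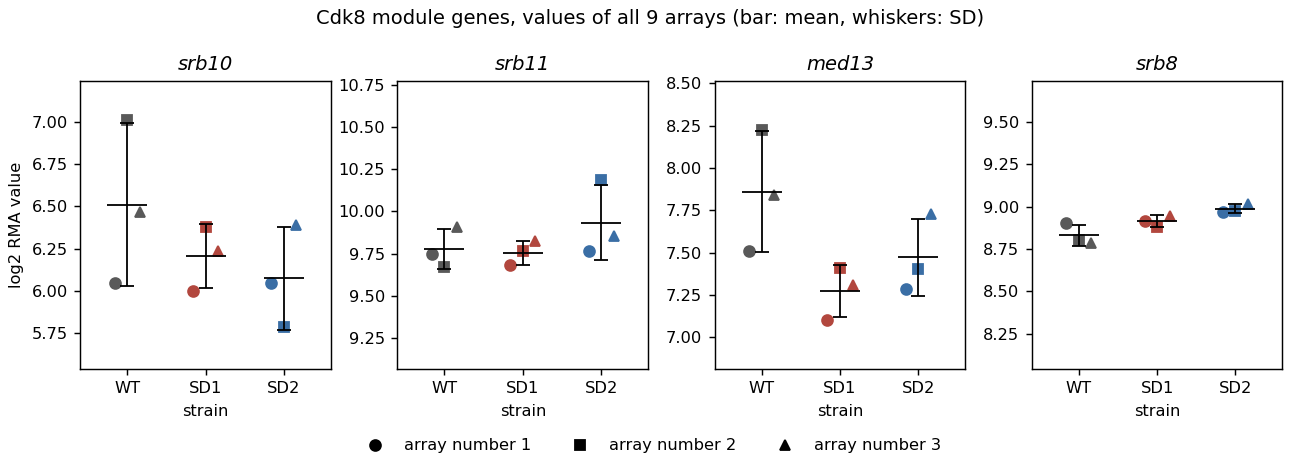
The log2 value of srb10, srb11, med13 and srb8 on each of the 9 arrays, by strain, with the array number as the symbol, the mean as a bar and the SD as whiskers (n = 3). Each panel spans the same height in log2 units. For med13 the 3 SD1 arrays lie below all WT arrays. For srb10 the WT arrays spread from 6.05 to 7.01.

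The kinase gene srb10 gave means below WT in both deletions, without passing the test in either. Its log2 value was 6.05, 7.01 and 6.47 on WT arrays 1, 2 and 3, the widest spread of any strain for the 3 genes. It was 6.001, 6.38 and 6.24 in SD1 and 6.05, 5.78 and 6.39 in SD2. Both deletions overlapped WT, and WT array 1 and SD2 array 1 carried the same value to every digit deposited. The difference from WT was -0.30 ± 0.24 in SD1 (95% interval -0.86 to 0.25, adjusted p = 0.352). In SD2 it was -0.43 ± 0.24 (95% interval -0.99 to 0.12, adjusted p = 0.212). These intervals reach from a fall of nearly 1 log2 unit to a small rise, so for srb10 the arrays settle neither a direction nor the absence of a change.

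Most of the srb10 difference came from the arrays numbered 2. Within the numbers, SD1 minus WT was -0.05, -0.63 and -0.23, and SD2 minus WT was 0, -1.23 and -0.07. Without WT array 2 the SD1 value was -0.05 (adjusted p = 0.888) and the SD2 value was -0.18 (adjusted p = 0.598). Without WT array 1, the SD2 value was -0.66 and crossed the threshold narrowly (adjusted p = 0.0496). The SD of srb10 in WT was 0.48, above the WT SD of 95.4% of S. pombe probe sets, whose median was 0.15. The signal of srb10 was low, at 0.63 to 1.84 log2 units above the background of the same array.

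The cyclin gene srb11 moved little. Its log2 value was 9.75, 9.67 and 9.91 in WT, 9.68, 9.76 and 9.82 in SD1, and 9.77, 10.18 and 9.85 in SD2. All strains overlapped, and SD2 array 2 was the highest. The difference from WT was -0.02 ± 0.12 in SD1 (95% interval -0.29 to 0.25, adjusted p = 0.897) and 0.16 ± 0.12 in SD2 (95% interval -0.11 to 0.42, adjusted p = 0.351). The sign in SD1 turned to 0.02 with arrays centred on their S. pombe medians. In SD2 the number 2 arrays differed by 0.51, while those numbered 1 and 3 differed by 0.02 and -0.06.

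The srb8 gene, for the Med12 subunit, whose human counterpart activates the kinase, had the narrowest spread and the opposite sign to med13. Its log2 value was 8.90, 8.80 and 8.79 in WT, 8.92, 8.88 and 8.95 in SD1, and 8.97, 8.97 and 9.02 in SD2. The SD2 arrays lay above all WT and all SD1 arrays, whereas SD1 overlapped WT. The differences were small, at 0.09 ± 0.06 in SD1 (adjusted p = 0.317) and 0.16 ± 0.06 in SD2 (95% interval 0.01 to 0.30, adjusted p = 0.0968). They were 0.07, 0.17 and 0.23 within the numbers in SD2. With the array number as a block the SD2 value passed (adjusted p = 0.033), as did 26% of probe sets in that direction, and after quantile normalization it shrank to 0.05 (adjusted p = 0.704).

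Calls and separations like those of the module genes were common among the 2937 named S. pombe probe sets. With 3 genes the shares are coarse. In SD1, 1 of the 3 genes was called lower and 0 higher, where 23.7% of probe sets were called lower and 19.5% higher. A difference below 0 within every array number, which med13 and srb10 had in SD1, was seen in 42.8%, and in 35.2% in SD2, where med13 alone of the 3 had it. In SD2, 0 of the 3 genes were called by limma, and 0 had an unadjusted p under 0.05, where 14.3% of probe sets were called lower and 17.6% higher. Separation above WT, as for srb8 in SD2, was seen in 23.1% of probe sets.

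The differences of the 3 genes had a median of -0.30 in SD1, beside -0.03 over all S. pombe probe sets, and of -0.39 in SD2, beside 0.01. For med13, 11.5% of probe sets had a lower difference in SD1 and 13.9% in SD2. For srb10 these shares were 26.5% and 11.5%, and for srb11 50.9% and 68.7%. The SD1 and SD2 comparisons share the WT arrays, so a high WT array lowers a gene in both.

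**Figure D2:**
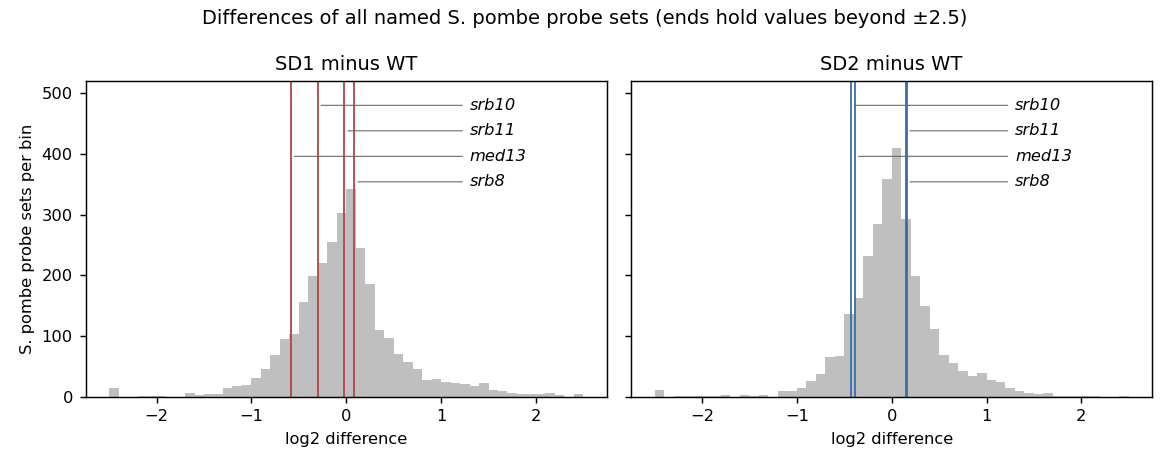
Number of S. pombe probe sets in bins of their log2 difference from WT, for SD1 and SD2, with vertical lines at srb10, srb11, med13 and srb8. The lines fall within the bulk of the distribution, med13 at -0.59 in SD1 and srb10 at -0.43 in SD2 being the lowest of the module in each.

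**Figure D3:**
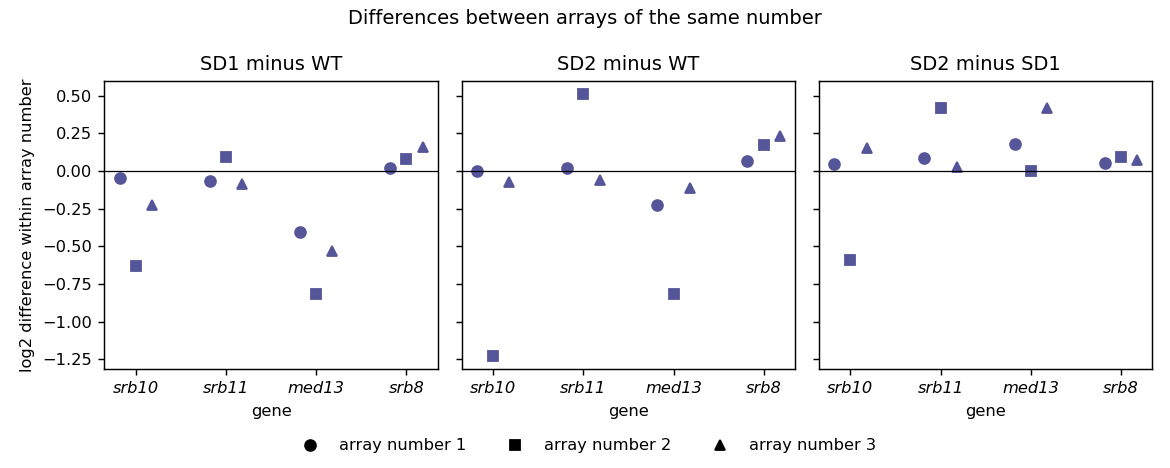
Log2 differences between arrays that carry the same number, for 4 module genes and 3 comparisons, with the array number as the symbol. For srb10 the number 2 arrays give -0.63 and -1.23 against WT while the others lie near 0 or at -0.23. For med13 all 6 differences from WT are below 0.

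The paralog deletions were compared with each other to ask whether they left the module at different levels. By limma 0 of the 3 genes passed, 0 had an unadjusted p under 0.05, and 0.17% of all probe sets were called in either direction. SD2 minus SD1 was 0.20 ± 0.19 for med13 (95% interval -0.23 to 0.63, adjusted p = 0.809). It was -0.13 ± 0.24 for srb10 (95% interval -0.69 to 0.43) and 0.18 ± 0.12 for srb11 (95% interval -0.09 to 0.45). The call on med13 in SD1 and its absence in SD2 therefore do not show that the deletions differ. In order of mean level med13 ran WT, SD2, SD1, srb10 ran WT, SD1, SD2, and srb11 ran SD2, WT, SD1, and of all these pairs the WT and SD1 levels of med13 alone passed the test. The srb8 means ran SD2, SD1, WT, with SD2 minus SD1 at 0.07 ± 0.06. All 3 SD2 arrays lay above all SD1 arrays for srb8, as they did for 12.2% of probe sets.

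The core of Mediator was set beside the module because the module acts through it. All 17 listed core genes were measured. In SD1, 2 of 17 rose and 3 fell (11.8% and 17.6% of them, beside 19.5% and 23.7% of all S. pombe probe sets), and the median was -0.04. The falls were those of srb4 (Med17, the scaffold of the head), -0.48 ± 0.10, of med18, a head subunit, -0.47 ± 0.07, and of pmc3 (Med27), -0.38 ± 0.13. The rises were those of med6, a head subunit, 0.45 ± 0.10, and of srb7 (Med21, of the middle), 0.36 ± 0.11. In SD2, 3 rose and 1 fell (17.6% and 5.88%, beside 17.6% and 14.3% of all), with a median of 0.02. Those were srb7 (0.55 ± 0.11), med6 (0.46 ± 0.10) and srb6 (Med22, of the head, 0.44 ± 0.10) as rises, and med18 (-0.21 ± 0.07, adjusted p = 0.0419) as the fall. In each direction the share of core genes called was at or below that of all probe sets. The SD2 call on med18 was lost in 8 of the 9 fits that left out an array (adjusted p up to 0.146). In SD1 the call on pmc3 was lost in 6 of them (up to 0.136) and that on srb7 in 4 (up to 0.0766), and the other calls on core genes were kept in all 9.

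The core genes called were separated from WT on every array, but they were picked by their call, so the separation adds no support. All SD1 arrays lay below WT in 28.6% of all probe sets and above in 23.3%. For SD2 these shares were 20.2% and 23.1%. For med18 the SD1 arrays lay at 10.66, 10.67 and 10.66 (log2), below the WT arrays at 11.20, 11.12 and 11.10. For med6 the WT arrays lay at 7.77, 7.51 and 7.56 and the SD1 arrays at 8.12, 7.88 and 8.19. The SD2 arrays lay at 8.12, 8.10 and 8.001, and both deletions stood above WT. The largest core changes, -0.48 for srb4 in SD1 and 0.55 for srb7 in SD2, had errors of 0.10 and 0.11, beside 0.19 for the med13 fall of 0.59. Between SD2 and SD1, 0 of the 17 core genes passed by limma and 1 had an unadjusted p under 0.05.

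**Figure D4:**
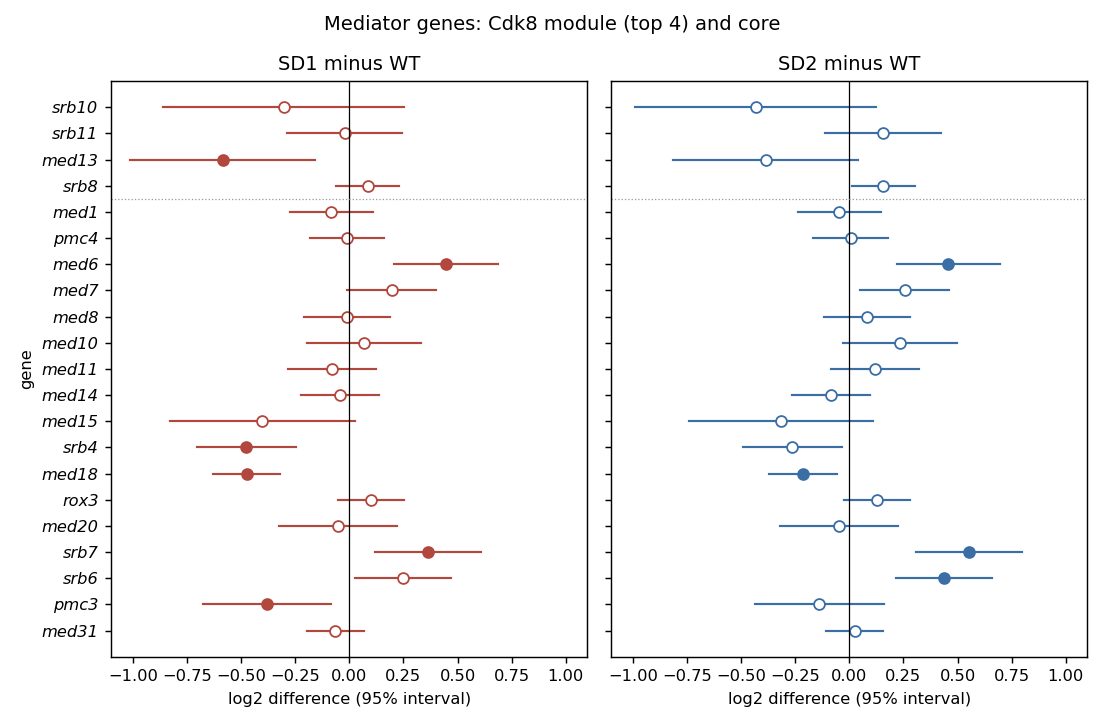
Log2 differences from WT with 95% intervals for 21 Mediator genes in SD1 and SD2. Filled points passed the test and open points did not; the 4 module genes are above the dotted line. In the module, med13 in SD1 alone is filled, and core genes are filled on both sides of 0.

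The enzyme and kinases that share the module's step in transcription included larger changes. Of 12 RNA polymerase II genes 5 rose and 1 fell in SD1, and 5 rose and 0 fell in SD2, with medians of 0.16 and 0.17. The rises were 41.7% of the list in each, beside 19.5% of all probe sets in SD1 and 17.6% in SD2. The falls were 8.33% and 0% of the list, beside 23.7% and 14.3% of all probe sets. The rises in SD1 were led by rpc10 (Rpb12, 1.15 ± 0.11), rpb10 (1.12 ± 0.13), rpb8 (1.11 ± 0.15) and rpb5 (0.89 ± 0.12), and the same 4 genes led in SD2 at 0.94, 1.02, 0.93 and 0.81. The remaining rise was rpb6 in both (0.73 and 0.57), named after its value was seen. These 5 genes encode the subunits that RNA polymerases I, II and III have in common. The fall in SD1 was that of rpb2, a catalytic subunit found in RNA polymerase II alone (-0.24 ± 0.07). With an array left out, the calls on rpb2 in SD1 and on rpb6 in SD2 were each lost in 5 of the 9 fits.

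Among 9 genes for other kinases and cyclins of transcription, 2 rose and 4 fell in SD1, and 1 rose and 2 fell in SD2, with medians of -0.20 and -0.06. These were 22.2% and 44.4% of the list in SD1, beside 19.5% and 23.7% of all probe sets, and 11.1% and 22.2% in SD2, beside 17.6% and 14.3%. The kinase gene mcs6 (Cdk7) was at -0.66 ± 0.16 in SD1 and -0.74 ± 0.16 in SD2, and its cyclin gene mcs2 at -0.38 ± 0.08 and -0.37 ± 0.08, all 4 values passing. The third gene of that kinase complex, pmh1 (Mat1), named after its value was seen, fell in SD1 (-0.31 ± 0.07) and stood at -0.20 ± 0.07 in SD2 (adjusted p = 0.0513). The elongation kinase gene cdk9 fell in SD1 (-0.33 ± 0.08). The largest rise of the list was lsg1, for a subunit of the kinase that phosphorylates the polymerase tail during elongation, at 0.94 ± 0.13 in SD1 and 0.78 ± 0.13 in SD2. The smaller rise in SD1, named after its value was seen, was lsc1 (0.21 ± 0.06), the cyclin of that kinase, and this call was lost in 5 of the 9 fits that left out an array.

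Listed flocculin and adhesin genes, with an activator of flocculin genes, were read next, as far as they were measured. Of 12 listed genes 4 had a named probe set. In each deletion 2 of the 4 rose and 1 fell, 50% and 25% of those measured. Of all probe sets 19.5% rose and 23.7% fell in SD1, and 17.6% rose and 14.3% fell in SD2. The log2 value of the flocculin gene pfl8 was 7.40, 7.37 and 7.77 in WT, 9.72, 9.12 and 10.05 in SD1 and 8.96, 9.70 and 9.32 in SD2. That of mbx2, the activator of flocculin genes, was 6.63, 7.45 and 7.32 in WT, 9.15, 8.90 and 9.81 in SD1 and 8.68, 9.05 and 9.43 in SD2. Both rose in both deletions, with every deletion array above every WT array. Such separation above WT was seen in 23.3% of all probe sets in SD1 and 23.1% in SD2. Within array numbers 1, 2 and 3, mbx2 differed from WT by 2.53, 1.46 and 2.49 in SD1 and by 2.05, 1.60 and 2.11 in SD2. A link between these rises and the level of med13 was not tested. The adhesin gene mam3 fell in both, at -0.58 ± 0.19 and -0.66 ± 0.19, calls that were lost in 3 and 4 of the 9 fits that left out an array. The remaining gene, map4, named after its value was seen, was not called in either deletion. With the array number as a block map4 passed as lower in SD1, as did 33% of all S. pombe probe sets.

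Genes of mitosis that depend on the forkhead factor Fkh2, a substrate of Cdk8 in fission yeast, were listed as a further readout. Of 11 measured, 5 fell and 0 rose in SD1, and 2 fell and 0 rose in SD2, and the medians were -0.30 and -0.20, beside -0.03 and 0.01 over all probe sets. The falls were 45.5% of the list in SD1, where 23.7% of all probe sets fell, and 18.2% in SD2, where 14.3% fell. The septation kinase gene sid2 changed the most (-0.85 ± 0.10 in SD1, -0.69 ± 0.10 in SD2), and the kinesin gene klp5 fell in both (-0.30 ± 0.07 and -0.26 ± 0.07). In SD1 the myosin gene myp2 (-0.38 ± 0.12) and slp1 (-0.35 ± 0.12), an activator of the anaphase-promoting complex, also fell. The fifth fall in SD1, klp6 (-0.29 ± 0.10), is named after its value was seen. With an array left out, the SD1 calls on slp1 and klp6 were each lost in 6 of the 9 fits and that on myp2 in 4, and the SD2 call on klp5 in 3. The fkh2 gene itself was at -0.35 ± 0.14 in SD1 (adjusted p = 0.0733), also named after its value was seen.

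Markers of mating type moved as well. Of the 8 probe sets for 6 M cell markers 7 fell in SD1 and 2 in SD2 (87.5% and 25%, beside 23.7% and 14.3% of all probe sets), and their summed level ran from 12.7 to 13.55 (log2 of the sum) in WT, 11.51 to 12.31 in SD1 and 12.09 to 12.96 in SD2. The largest falls in SD1 were those of mam1 (-1.66, with -1.12 in SD2), mfm2 (-1.35, with -0.58 in SD2, which missed the test) and mfm1 (-1.57 and -0.58 in 1 probe set, where the second missed the test, and -1.27 and -0.67 in the other). The M-factor genes mfm1, mfm2 and mfm3 encode near-identical peptides, so their probe sets may share signal. With an array left out, the SD1 call on mfm2 was lost in 4 of the 9 fits and the calls on the probe sets of mfm3 in 2 and 4. Of 3 P cell markers map2 rose (1.11 and 0.96) and sxa1 fell (-0.53 and -0.27). The SD2 call on sxa1 was lost in 6 of the 9 fits that left out an array. The third P cell marker, map3, was not called in either deletion. The summed level of the P cell markers ran from 12.36 to 12.58 in WT, 11.9 to 12.06 in SD1 and 12.19 to 12.26 in SD2. That sum follows sxa1, which alone ran from 12.29 to 12.52 in WT. The M cell sum is led by mfm2, at 11.95 to 13.09 in WT. Neither sum is therefore a level of all its markers. Of these marker probe sets 0 were at background on all arrays of a strain, but some were low. The log2 value of map2 was 5.98, 5.50 and 5.995 on WT arrays 1, 2 and 3, beside the mean background of 5.17. The mfm1 probe set at -1.57 in SD1 read 5.234 on SD1 array 2, below the background of 5.265 on that array. In bulk RNA fewer cells of a type and less RNA per cell cannot be told apart, and the part of these markers in the med13 fall was not tested.

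Between the deletions these lists held 0 calls by limma in either direction, with 5 M cell and 1 P cell probe set at an unadjusted p under 0.05 and 0 in the polymerase, kinase, adhesion and Fkh2 lists. SD2 minus SD1 was -0.30 for pfl8 and -0.24 for mbx2, 0.16 for sid2 and 0.13 for slp1, -0.08 for mcs6 and 0.18 for cdk9. It was -0.22 for rpc10 and -0.18 for rpb8, 0.54 for mam1 and 0.77 for mfm2, and -0.15 for map2 and 0.27 for sxa1. All 8 M cell probe sets were higher on average in SD2 than in SD1, and 7 of them within every array number, as were 34.3% of all probe sets. With the array number as a block 3 of the 8 passed as higher, as did 0.545% of all probe sets in that direction. These were the probe sets of mam1 (adjusted p = 0.0321) and mfm2 (adjusted p = 0.0307) and 1 of mfm1 (adjusted p = 0.0237).

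Genes with the profile most like each module gene were found by Pearson's r over the 9 arrays, after the mean of each array number was subtracted. This is a description of 9 points that share strains and array numbers. The genes nearest to med13 were hem12, a heme synthesis gene (r = 0.99), chz1, a histone chaperone gene (0.99), ppt1, rds1 and ppa2, a protein phosphatase gene. All 5 stayed at 0.97 to 0.995 without the arrays numbered 2. The med13 profile was a common one, shared at r of 0.9 or more by 548 of 2898 other genes.

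The profiles of srb10 and srb11 were those of the arrays numbered 2. Those arrays held 96.3% of the squared deviations of srb10, 94.8% of those of srb11, and 65.1% of those of med13. Nearest to srb10 were clp1, a mitotic phosphatase gene (r = 0.99), mag2, psf1, a replication gene, rsm10 and mik1, a gene for an inhibitor of mitotic entry. Their r fell to between 0.57 and 0.92 over the remaining 6 arrays. Nearest to srb11 were cdc6, a DNA polymerase gene, set2, a histone methyltransferase gene, imt1, med8 of core Mediator and tea5, at r of 0.97 to 0.98, and between 0.56 and 0.95 without those arrays. The 3 module genes did not share a profile. The r was 0.80 for srb10 and med13, -0.85 for srb10 and srb11, and -0.40 for med13 and srb11. Among 2898 genes med13 ranked 281 in likeness to srb10.

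**Figure D5:**
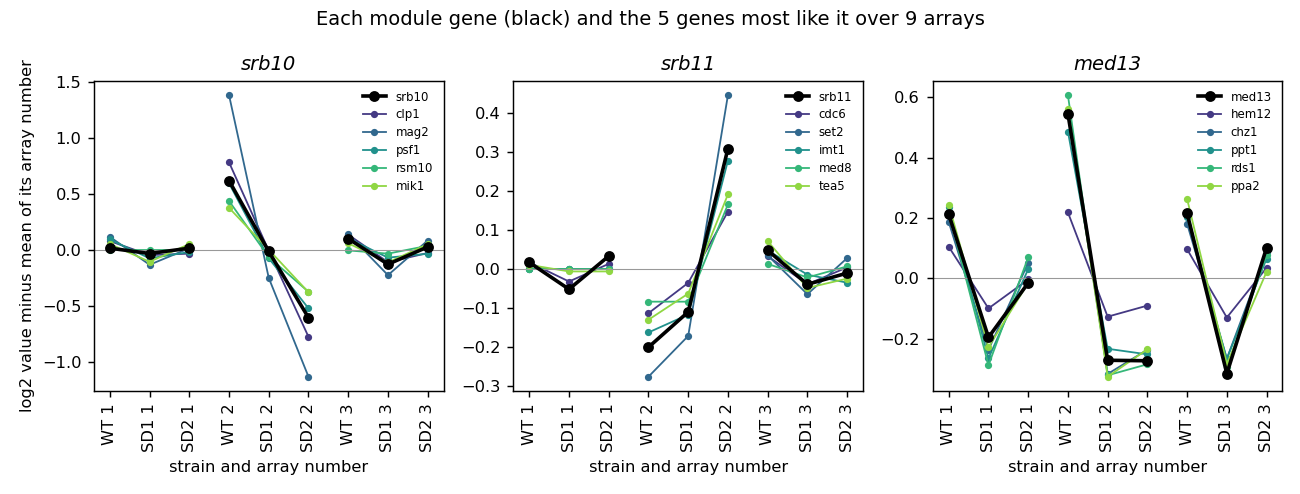
Log2 value minus the mean of its array number, by strain and array number, for srb10, srb11 and med13 (black) and the 5 genes most like each. The srb10 and srb11 profiles depart from 0 mainly on the arrays numbered 2, whereas med13 is above 0 on each WT array and below 0 on each SD1 array.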

How the data were processed

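RNA of 9 cultures was hybridised to Affymetrix arrays. The deposited values are log2 expression values per probe set, made by the authors with RMA and Partek per the submitters' processing notes, and versions, background correction and joint normalization are not given in the sources used here. The table held 10928 probe sets, of which 5177 had no gene in the annotation and entered no count of S. pombe probe sets. Of those with a gene in the array's probe annotation, 2937 matched S. pombe genes, and the other 2601 were taken as S. cerevisiae. Gene numbers gave the current symbols of assembly ASM294v3, and 3 probe sets had to be matched through their symbol. Sequences of the members and a genome of the files' build were not used here.

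The 9 arrays entered a single model with a mean for each strain (lmFit and eBayes of limma 3.58.1, under R 4.3.3). The Benjamini-Hochberg adjustment ran across all 2937 probe sets of S. pombe, and an adjusted p under 0.05 made a call. The fit was tested on simulated data. Arrays give no depth, so their number limits the precision. The members and gene lists were chosen with earlier results of these data known. Of each other list, up to 4 called genes with the largest change per comparison were named, or 2 as values where none was called, and the 5 genes most like each member. P cell markers, M cell markers and the other lists were described by counts. A further list is not reported here.

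Alternatives were the array number as a replicate block, centring on the S. pombe median, quantile normalization, and leaving out 43 probe sets below background. Others were fitting the strains compared alone, limma's trend, fitting and adjusting over all 10928 probe sets of the table, and leaving out each array. Deviations from strain means of same-numbered arrays of different strains correlated at -0.10 to 0.87, above 0.1 in 8 of 9 pairs. The pairs of arrays numbered 1 gave 0.79 to 0.87, and those numbered 2 or 3 gave -0.10 to 0.62. The labels name no pairing, so the main fit left the number out, and the block served as the alternative.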

Additional observations from a re-analysis of the deposited data

How the results depend on the processing

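Over 7 settings, the module values kept their direction and side of the threshold except as follows. The fall of med13 in SD1 missed the threshold when adjusted over all 10928 probe sets of the table (adjusted p = 0.0572, -0.59). Its value ran from -0.76 to -0.40 with an array left out. In SD2 med13 passed at -0.54 with quantile normalization and ran from -0.56 to -0.20 with an array left out. With the replicate block srb8 passed in SD2 (0.16, adjusted p = 0.033), and that block changed no other call on a module gene. With arrays centred srb11 in SD1 turned to 0.023. With an array left out srb11 in SD1 ran from -0.074 to 0.044, srb10 in SD2 from -0.66 to -0.18, and srb10 in SD2 minus SD1 from -0.29 to 0.016. Core Mediator genes higher in SD1 numbered 1 with the strains compared alone and 1 to 2 with an array left out. Core genes lower in SD2 numbered 3 with the block, which called 23.6% of all S. pombe probe sets lower. They numbered 0 with the strains compared alone, 0 when adjusted over all 10928 probe sets of the table, and 0 to 1 with an array left out. Probe sets lower in SD2 were 694 with the block, against 419, and 261 to 486 with an array left out. In SD2 minus SD1, 16 were higher and 9 lower with the block, against 1 and 4, and 1 to 3 and 3 to 7 with an array left out. Of 9 arrays 3 correlated best with an array of their own number in another strain. With the block, 3 of 8 M cell probe sets were higher in SD2 than in SD1, against 0. The Fkh2 list held 7 falls in SD1 with the block, against 5. In SD2 it held 4 falls and 1 rise with the block, against 2 and 0. M cell probe sets held 4 falls in SD2 with the block, against 2. Of all S. pombe probe sets the block called 33% lower in SD1, and 23.6% lower and 26% higher in SD2. The cause of these changes was not tested.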
